A study of Homo sapiens with 288 samples.

Results

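The 8 genes described here take up, carry or sense lipids. They were LPL, LIPG, CD36, APOE, FABP3, FABP4, FABP5 and PPARG, chosen by symbol from the 17492 protein-coding genes listed, and each symbol matched exactly 1 row of each count table. The genes were picked because earlier results of these data had shown their levels, detection and spread, so their values are given as a description and no test is attached to them. All 8 had a mean of at least 1 CPM in at least 1 of the cell types in every experiment. CPM is the rounded count of a gene per 1000000 counts of its cell.

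Lipids travel in blood inside lipoproteins. Lipases on the vessel wall release fatty acids from them, receptors and fatty acid transporters bring the products into the cell, binding proteins of the FABP family carry fatty acids in the cytoplasm, and the nuclear receptor PPARG responds to fatty acids by switching on genes of lipid storage. Endothelial cells are the surface on which circulating lipoproteins are handled, and trophoblast cells take up maternal lipid for the fetus.

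The cells were derived from the H1 human embryonic stem cell line, an established line of a single genotype. Endothelial cells (EC) were obtained by culture in E8 medium with BMP4 at 5 ng/ml and Activin A at 25 ng/ml over 2 days, followed by VEGF and WNT over 3 days. Trophoblast-like cells (TB) were obtained in E7, which is E8 lacking FGF2, with BMP4 at 50 ng/ml and the inhibitor SB431542. Both were grown in culture and captured singly on the Fluidigm C1 system, and no separate cultures are named, so each cell type in each experiment was 1 sample. The stored cDNA came from 45 EC and 51 TB cells, was equalized to a fixed input and was sequenced in 3 experiments, with equal pooling volumes (EQ), with varied pooling volumes (EQ-Vary) and as a repeat of EQ at lower depth (EQ-75%). Cells are named below by type and number, and the same number is the same cell in every experiment.

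In all, 259 libraries passed the study's limits on depth and on the share taken by the most abundant genes, which left 38 EC and 48 TB cells in EQ, 38 and 46 in EQ-Vary, and 39 and 50 in EQ-75%. The median total count of the 6 groups ran from 1499278 to 2025166. The EC cells carried endothelial markers, with a summed level of 15 markers between 637.6 and 10417 CPM in EQ against 4.57 to 138 CPM in TB. The TB cells carried trophoblast markers, with 2605 to 14739 CPM summed over 12 of the 13 listed against 48.05 to 2279 CPM in EC. EC 15 stood apart from its label, since it held the 637.6 CPM of endothelial and the 2279 CPM of trophoblast markers. It also held 2755 CPM summed over 6 pluripotent markers, the highest in EC, where the median was 413 CPM. EC 15 was kept because it passed both limits. Of the blood and fat cell markers, SPI1, PPBP and PLIN1 had 0 counts in both types in EQ. Some blood markers differed between the types in EQ. AIF1 had a mean of 13.02 CPM in EC, with a count in 44.7% of EC cells, and 0 in TB. RUNX1 had 9.53 CPM in EC and 2.94 CPM in TB. CSF1R went the other way, with 0.0129 CPM in EC and 2.402 CPM in TB, as did ITGA2B, with 0.0261 and 0.158 CPM. PTPRC had means of 18.9 CPM in EC and 12.9 CPM in TB, ADIPOQ 18.96 and 12.6 CPM, and ADIPOR2 29.5 and 35.3 CPM. Of the nonzero ADIPOQ values, 99.3% were not whole numbers. Of the 6 mesenchymal markers, LUM had a mean of 3041 CPM in TB and 10.2 CPM in EC. COL1A1 had 280 and 21.8 CPM, TAGLN 121 and 10.4 CPM, and ACTA2 70.2 and 22.2 CPM. PDGFRB was alike in both, at 14.5 CPM in TB and 14.9 CPM in EC. PDGFRA was lower in TB, at 7.28 against 11.8 CPM. What part such cell-to-cell differences had in the levels below was not tested.

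In EQ, LPL, FABP4, FABP5 and LIPG had means at least 2-fold higher in EC, and CD36, APOE and PPARG had means at least 2-fold higher in TB. FABP4 rested on 1 EC cell and CD36 on 3 TB cells, and as a difference of mean log2(CPM + 1), EC minus TB, they stood at 0.17 and -0.39. Among all genes tested, 19.7% were at least 2-fold higher in EC and 27.2% in TB. FABP3 was the 1 gene within 2-fold, with a log2 EC over TB of -0.42, and LIPG lay just beyond it, at a log2 of 1.13. Those 4 and those 3 genes were on the same side, past 2-fold, in both other experiments. FABP3 was past 2-fold towards TB only in EQ-75% (log2 EC over TB of -1.40). The shares over all genes were 20.1% towards EC and 27.3% towards TB in EQ-Vary, and 18.9% and 28.1% in EQ-75%. The log2 EC over TB of LPL was 9.02, 9.40 and 9.16 in EQ, EQ-Vary and EQ-75%.

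**Figure D1:**
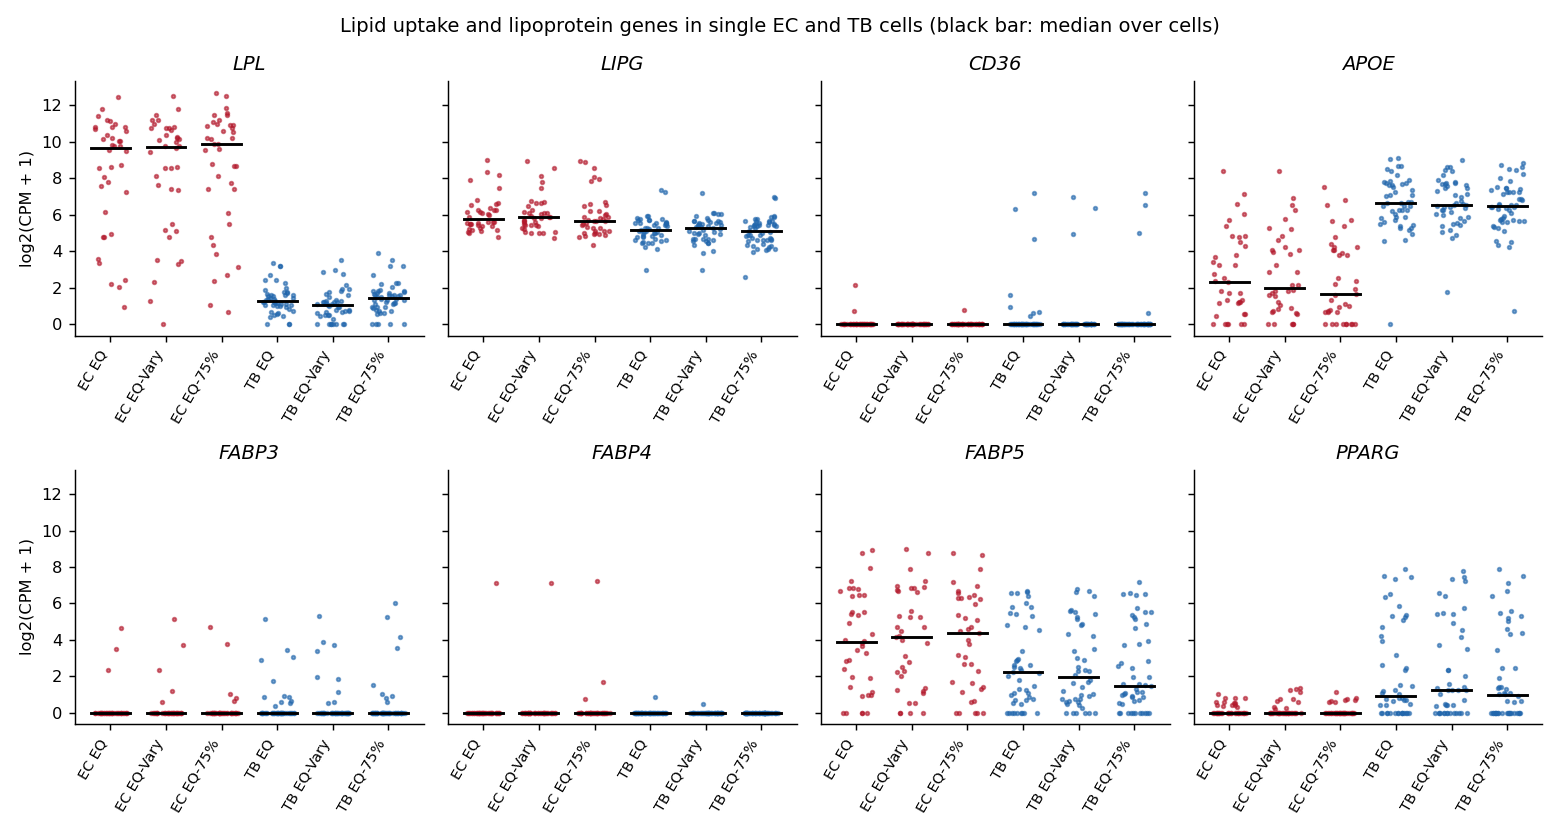
Level of each of the 8 genes in every passing cell, as log2(CPM + 1), by cell type (EC red, TB blue) and experiment; each point is a cell and the black bar is the median over cells. LPL spans the whole range in EC and stays at or below 14.01 CPM in TB, while FABP4, CD36 and FABP3 lie at 0 in most cells with a few cells high in every experiment.

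LPL is lipoprotein lipase, the enzyme that hydrolyses triglyceride in lipoproteins at the vessel wall. The gene lies at 8:19901717-19967259 (plus strand, GRCh38). In EC of EQ its level ran from 0.942 CPM in EC 38 to 5716 CPM in EC 28, with a median of 818 CPM, and in TB it ran from 0 to 9.23 CPM with a median of 1.38 CPM. The ranges overlapped only through 5 EC cells, and 33 of the 38 EC cells lay above every TB cell. The mean was 1042 ± 1196 CPM (SD, n = 38 cells) in EC and 2.00 ± 2.05 CPM (SD, n = 48 cells) in TB, a 520-fold difference. It was 675-fold with EQ-Vary and 572-fold with EQ-75%, and again 33 EC cells lay above every TB cell in each of them. Differences of at least 100-fold towards EC were found for 3.56% of all genes tested in EQ.

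The EC cells were far from uniform in LPL. In EQ, 16 cells had at least 1000 CPM, 12 had 100 to 1000 CPM, 5 had 10 to 100 CPM and 5 had less than 10 CPM. The squared coefficient of variation was 4.49 times that of genes of similar mean, a ratio above that of 98.4% of the genes tested. FABP4 also exceeded 2 times in EC (3.95) and CD36 did in TB (2.42), while 16.1% of all genes exceeded 2 times in EC and 12.1% in TB. The 5 lowest cells were EC 38, EC 12, EC 43, EC 5 and EC 31, at 0.942, 3.03, 3.63, 4.40 and 9.12 CPM in EQ. They were as low on repetition, with 0, 3.94, 1.40, 8.67 and 10.3 CPM in EQ-Vary and 4.08, 1.03, 0.591, 5.45 and 13.4 CPM in EQ-75%. Of these, EC 38 had 5697 CPM of summed endothelial markers, close to the EC median of 5692 CPM, and EC 43 had 2434 CPM.

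Across EC cells LPL tended to be higher where endothelial markers were higher and lower where trophoblast markers were higher. Spearman's rho with the summed endothelial markers was 0.57, 0.59 and 0.55 in EQ, EQ-Vary and EQ-75% (n = 38, 38 and 39 cells), and with the summed trophoblast markers it was -0.49, -0.49 and -0.46. Without EC 15 the values in EQ were 0.56 and -0.47 (n = 37 cells). The trophoblast sum in EC came mostly from KRT18, GATA3 and TFAP2A, with means of 327, 120 and 70.7 CPM in EQ. KRT19, VTCN1, HAND1 and KRT7 had 5.57, 3.64, 0.732 and 0.0336 CPM. The part of each marker in the correlation was not tested. The cells share 1 sample and the 3 experiments share their cDNA, and each level is a share of the same total, so these are descriptions and carry no p. With the total count of the cell, the rho of LPL was -0.20 in EQ. Among the 8896 other genes detected in at least 50% of EC cells, EFNB2, FLT1 and CXorf36 were closest to LPL in rank order in EQ. EFNB2, the arterial ephrin ligand, had a rho of 0.74 in EQ and 0.70 in EQ-75%, the closest in both. FLT1, a VEGF receptor, had 0.67 and 0.64, and CXorf36 had 0.66 and 0.56. FLT1 is 1 of the 15 endothelial markers summed, so its rho is not separate from that of the sum. CXorf36 stood at rank 14 in EQ-75%.

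**Figure D2:**
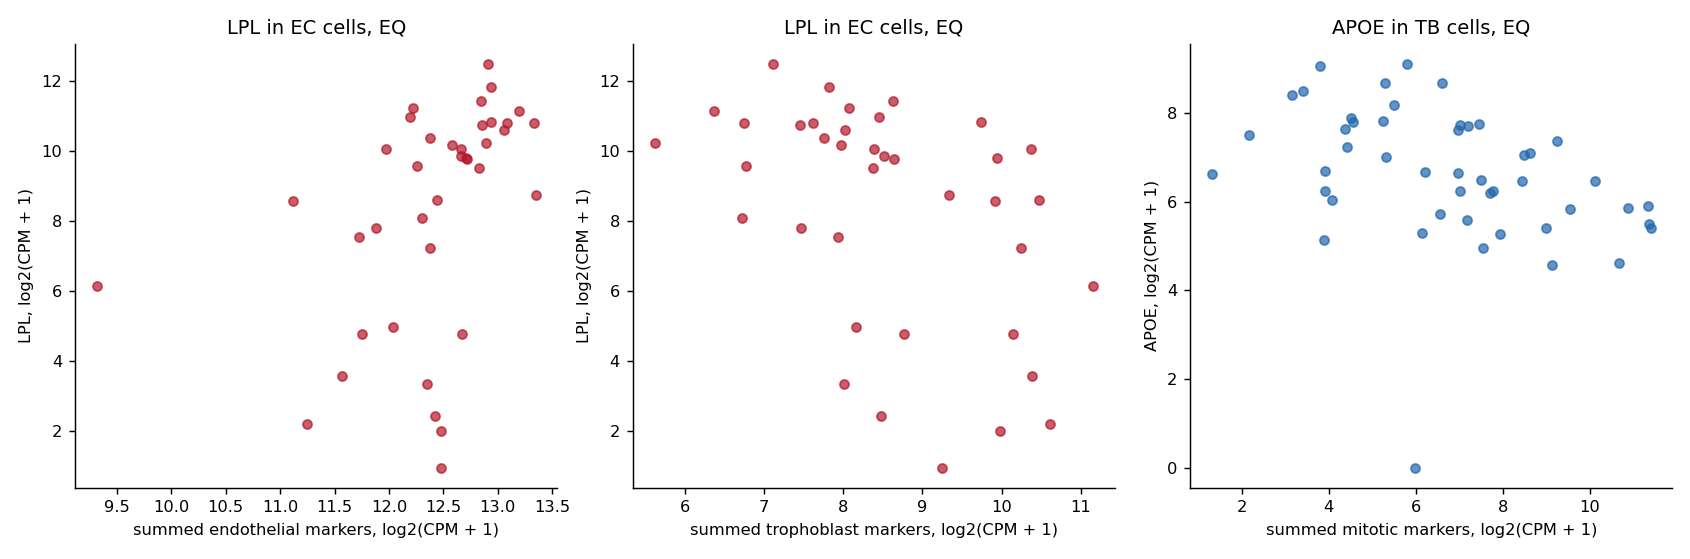
LPL in 38 EC cells of EQ against the summed endothelial markers (left) and trophoblast markers (middle), and APOE in 48 TB cells against the summed mitotic markers (right), all as log2(CPM + 1), with a point for each cell. LPL is high in most cells rich in endothelial markers but 4 cells with 5224 to 5697 CPM of them fall below 10 CPM, and APOE declines as mitotic markers rise (rho -0.49).

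In TB cells LPL was present as a few counts in nearly every cell. A count was found in 45 of 48 cells in EQ, 38 of 46 in EQ-Vary and 45 of 50 in EQ-75%, although only 11, 6 and 10 of them had 5 counts or more. After each cell was thinned to 250000 counts, the detection rate in EQ was 35.7% in TB and 94.5% in EC. The low counts were spread evenly, with the 3 highest cells holding 26.5% of the summed CPM where genes of similar mean had 80.7% in theirs. They were also less repeatable than those of EC, with a rank correlation of 0.36 between EQ and EQ-75% over 47 TB cells and 0.98 over 37 EC cells. The TB mean was 0.192% of the EC mean, and the 9 endothelial markers with at least 100 CPM in EC ranged from 0.163% for TEK to 2.24% for EGFL7, with 7 of them above the share of LPL. Of 2247 genes with at least 100 CPM in EC, 17 had a smaller share in TB. Where these TB counts came from was not tested.

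**Figure D3:**
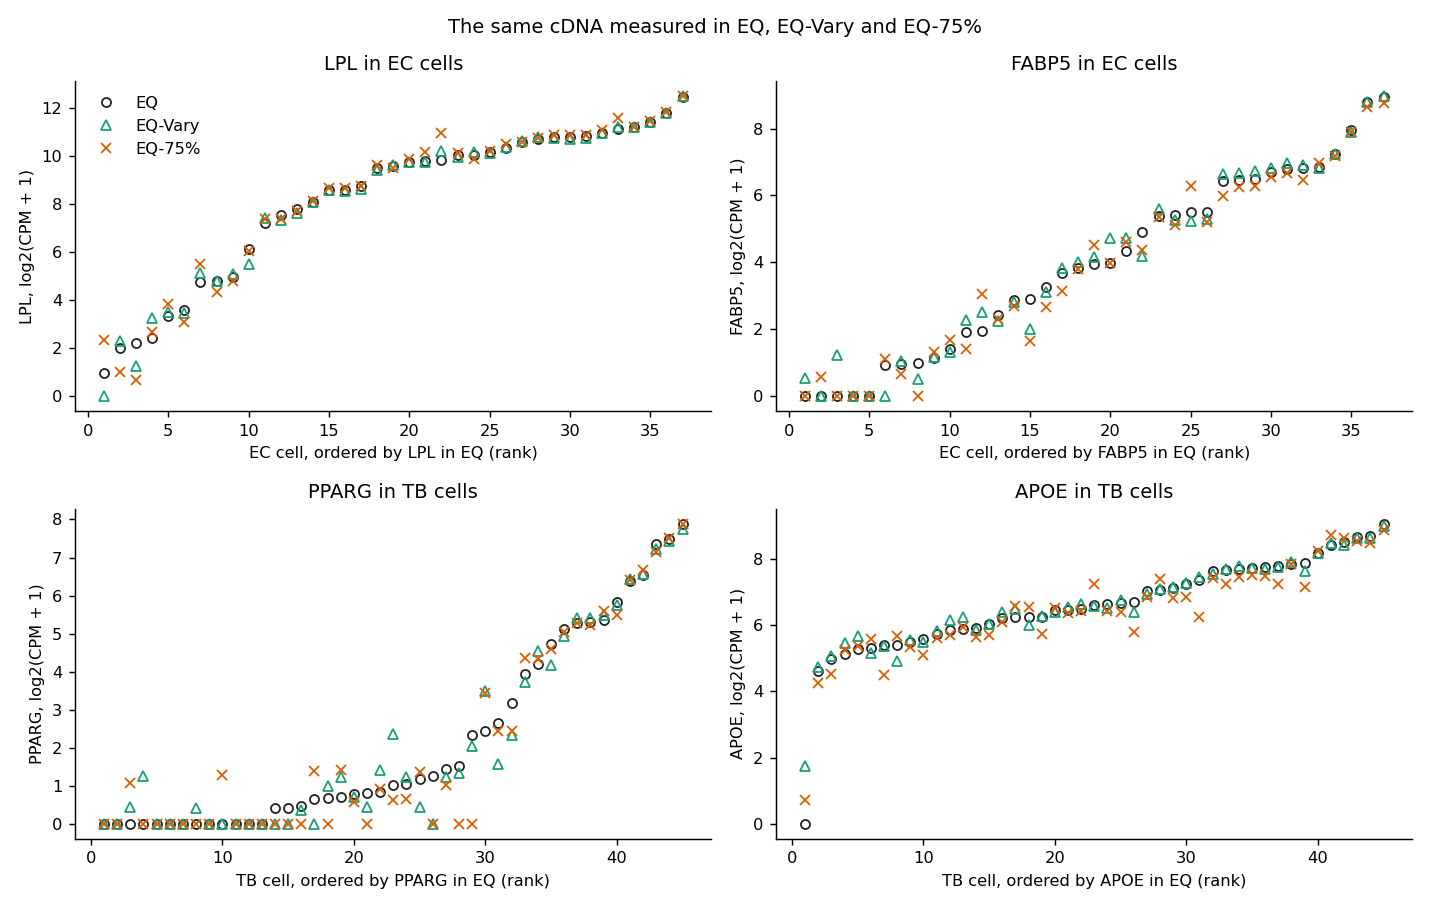
Level of LPL and FABP5 in EC cells and of PPARG and APOE in TB cells, as log2(CPM + 1), for the cells that passed in all 3 experiments, ordered by the level in EQ; circles are EQ, triangles EQ-Vary and crosses EQ-75%. The 3 symbols of a cell lie close together from about 10 CPM upwards and scatter below it, and most APOE crosses lie under their circles.

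The genes whose products act on LPL differed widely from it. GPIHBP1, which anchors the enzyme to the endothelial surface, had 0 counts in every passing cell of all 3 experiments, and 0 of 38 EC cells in EQ allows a share of cells with a count of up to 7.89%, which sets no limit on cells that express the gene. ANGPTL4, an inhibitor of the enzyme, had 23.1 ± 43.5 CPM in EC (SD, n = 38 cells) and 0.259 ± 1.52 CPM in TB (SD, n = 48 cells). SEL1L, needed for its folding in the endoplasmic reticulum, had 197 ± 248 CPM in EC and 95.5 ± 122 CPM in TB. LMF1, which matures the enzyme, had 0.602 ± 1.51 CPM in EC and 3.98 ± 11.6 CPM in TB. GPIHBP1, SEL1L, LMF1 and FURIN were named after their values were seen. Over EC cells ANGPTL4 had a rank correlation with LPL of 0.04, 0.07 and -0.02 in the 3 experiments. EC 38, lowest in LPL in EQ, was the highest for ANGPTL4 there, with 170 CPM in EQ, 167 CPM in EQ-Vary and 137 CPM in EQ-75%. In EQ-75% EC 22 was higher, at 177 CPM, and it was among the highest for LPL, at 3741 CPM. FURIN, a protease that cleaves the enzyme, had 41.4 ± 65.6 CPM in EC and 19.997 ± 33.1 CPM in TB in EQ, and a rank correlation with LPL over EC cells of 0.36, 0.31 and 0.32.

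LIPG is endothelial lipase, which cleaves phospholipids of high-density lipoprotein, and lies at 18:49560699-49599185 (plus strand). Its counts are uncertain in source. Of the 51-base windows of its longest coding transcript in GENCODE v44, 5.53% matched a transcript of another protein-coding gene with up to 2 mismatches, and 98.2% of its 280 nonzero deposited values were not whole numbers, against 33.2% for LPL and a median of 48.8% over 10010 genes. Values that are not whole also occurred where no shared window was found, at 44.6% for APOE and 44.1% for PPARG.

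LIPG was detected in every cell of both types in all 3 experiments, as LPL was in EC of EQ and EQ-75%. Of all genes, 19.9% were detected in every EC cell and 19.4% in every TB cell in EQ. In EQ it ran from 26.2 to 509 CPM in EC, with a median of 53.2 CPM, and from 6.86 to 166 CPM in TB, with a median of 35.4 CPM. The ranges overlapped in most cells, and 5 EC cells lay above every TB cell. The mean was 89.2 ± 97.9 CPM (SD, n = 38 cells) in EC and 40.8 ± 27.8 CPM (SD, n = 48 cells) in TB, a log2 difference of 1.13, with 1.18 (EQ-Vary) and 1.37 (EQ-75%) in the repeats. The difference of the means was smaller than the SD of the EC cells. EC 27 was highest in each experiment, at 509, 502 and 496 CPM.

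Its spread in TB was low, 0.199 times that of genes of similar mean, and only 6.29% of genes tested had a lower ratio. Over TB cells its rank correlation with the summed endothelial markers was 0.60, 0.60 and 0.79 in EQ, EQ-Vary and EQ-75%, at a level of those markers that did not exceed 138 CPM in EQ. With the macrophage and blood marker sum it was 0.35, 0.32 and 0.34, and with the adipocyte marker sum 0.38, 0.27 and 0.22. With the trophoblast sum it was -0.16, -0.12 and -0.19, and with the mitotic sum -0.23, -0.24 and -0.25. PECAM1 (15.0 CPM) and FLT1 (8.44 CPM) had the highest means of the endothelial markers in TB in EQ. Of the nonzero FLT1 values, 93.0% were not whole numbers. With the total count, LIPG in TB had a rho of -0.32, -0.24 and -0.36. TB 7 and TB 9, the cells with the most LIPG in EQ (166 and 151 CPM), had total counts of 494186 and 529656 and the highest endothelial sums in TB, 113 and 138 CPM, and the part of depth in the correlation was not tested. In EC the rank correlation of LIPG with the summed endothelial markers was -0.25, -0.17 and -0.15. The genes closest to LIPG over EC cells were THG1L (0.74), CACNG8 (0.74) and IL6R (0.73), with 0.32, 0.67 and 0.65 in EQ-75%. At least 98.2% of the nonzero values of each of these 3 were also not whole numbers. What part shared reads had in these likenesses, or in the TB correlations with marker sums, was not tested.

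CD36, a membrane receptor for long-chain fatty acids and modified lipoproteins at 7:80369575-80679277 (plus strand), was carried by 3 TB cells. TB 31 had 148, 125 and 145 CPM in EQ, EQ-Vary and EQ-75%, TB 21 had 78.1, 83.2 and 90.1 CPM, and TB 34 had 24.1, 29.9 and 30.8 CPM. No other TB cell had more than 1 count in any experiment. The same 3 of 45 cells were thus high every time, and 6 further TB cells had 1 count in a single experiment. In EC, CD36 had 3, 0 and 1 counts in EQ, EQ-Vary and EQ-75%, summed over all passing cells. The ratio of pooled CPM, TB over EC, was 82.2 in EQ, with a 95% interval of 27.9 to 401 that covers counting error only, and it was at least 48.96 in EQ-Vary when the EC count was set to the floor of 3. The 3 TB cells differed in the other genes, since TB 31 had 98.1 CPM of FABP5 and 0 of PPARG in EQ, TB 21 had 2.44 and 37.8 CPM, and TB 34 had 6.03 and 1.72 CPM.

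APOE is apolipoprotein E, the ligand by which lipoproteins bind receptors of the LDL receptor family, and lies at 19:44905791-44909393 (plus strand). It was detected in 47 of 48 TB cells in EQ and in all TB cells in the other experiments, and in 32 of 38, 33 of 38 and 30 of 39 EC cells. In EQ it ran from 0 to 550 CPM in TB, with a median of 98.2 CPM, and from 0 to 336 CPM in EC, with a median of 4.004 CPM. The ranges overlapped, and 6 TB cells lay above every EC cell. The mean was 148 ± 132 CPM (SD, n = 48 cells) in TB and 24.5 ± 59.3 CPM (SD, n = 38 cells) in EC, 6.03-fold higher in TB, with 5.80-fold in EQ-Vary and 7.02-fold in EQ-75%. The EC mean leaned on single cells, with 36.1% of the summed CPM in EC 5. TB 24 stood alone among TB cells, at 0, 2.35 and 0.660 CPM in the 3 experiments, although it had 4149 CPM of summed trophoblast markers.

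In TB, APOE was lower in cells with more mitotic markers, with a rank correlation of -0.49, -0.46 and -0.45 in EQ, EQ-Vary and EQ-75% (n = 48, 46 and 50 cells). FABP5 showed the opposite sign with those markers (0.31, 0.38 and 0.37), and the correlation between APOE and FABP5 was -0.38, -0.30 and -0.42. With the total count, APOE had a rho of 0.26, 0.36 and 0.29. The genes closest to APOE over TB cells were DES, a muscle intermediate filament gene (0.64 in EQ and 0.59 in EQ-75%), the ribosomal gene RPL13 (0.62 and 0.58) and APRT, a purine salvage enzyme (0.58 and 0.52), and DES and RPL13 kept the top places in EQ-75%.

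The level of APOE also differed between experiments. Over the 37 EC cells that passed in both, the mean fell from 25.1 ± 59.96 CPM in EQ to 15.4 ± 34.3 CPM in EQ-75% (SD, n = 37 cells), with 26 cells lower, 7 higher and the rest equal. A fall of at least 1.5-fold in EC was found for 4.17% of genes tested in EC, and for 1.53% in TB. In TB the mean in EQ-75% was 0.849 times that in EQ, with 32 of 47 cells lower. TB 40, the highest TB cell in EQ, had 550 CPM there and 93.1 CPM in EQ-75%. Its total counts were 365557 and 2009152, and its EQ-Vary library did not pass. The part of this cell in the lower TB mean was not tested. Over the 45 TB cells that passed in EQ-Vary and EQ-75%, without TB 40, the EQ-75% mean was 0.911 times that in EQ-Vary. Of these, 35 cells were lower in EQ-75%. Between EQ and EQ-Vary the ratio was 0.993 in EC and 0.996 in TB. Among the other genes, LPL was 1.09 times as high in EQ-75% as in EQ in EC (26 of 37 cells higher), and FABP5 and LIPG were 0.922 and 0.964 times (23 and 26 of 37 cells lower). PPARG in EC was 0.593 times as high, on mean levels of 0.184 and 0.109 CPM.

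The FABP genes encode small carriers of fatty acids in the cytoplasm. FABP3, the form known from heart muscle (1:31365253-31376850, minus strand), was near 0 in most cells of both types. It was found in 3 of 38 EC cells and 12 of 48 TB cells in EQ. EC 17 had 24.2, 34.1 and 24.9 CPM, EC 30 had 10.5, 11.9 and 12.7 CPM, and TB 17 had 34.9, 38.9 and 37.9 CPM in EQ, EQ-Vary and EQ-75%. These cells were therefore high each time. TB 22 was not, with 6.57 CPM in EQ, 9.28 CPM in EQ-Vary and 0.521 CPM in EQ-75%. The mean in EQ was 1.02 ± 4.26 CPM in EC and 1.36 ± 5.33 CPM in TB, a difference well inside the SDs. In EQ-75% the TB mean was 2.69 ± 10.7 CPM (SD, n = 50 cells), raised by TB 48 at 64.4 CPM, whose libraries did not pass in the other experiments. The genes closest to FABP3 over TB cells, TNPO3, CSNK1A1 and POLR3B (0.53, 0.52 and 0.50), had 0.19, 0.26 and 0.31 in EQ-75%.

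FABP4, the fat cell form and a known target of PPARG (8:81478419-81483236, minus strand), came from a single EC cell. EC 8 held 260, 290 and 172 counts in EQ, EQ-Vary and EQ-75%, or 139, 136 and 147 CPM. All other cells had at most 1 count, and the summed TB count was 1, 1 and 0. The ratio of pooled CPM, EC over TB, was 320.5 in EQ, with a 95% interval of 57.0 to 12707 for counting error, and at least 88.0 in EQ-75% when the TB count was set to 3. EC 8 had 0 counts of PPARG in EQ, 430 CPM of LPL and 64.6 CPM of APOE, and it had the highest endothelial marker sum of all EC cells. It also held 218, 221 and 230 CPM of APOD, another lipid carrier.

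FABP5, the form known from skin (8:81280536-81284777, plus strand), varied widely in both types. In EQ it ran from 0 to 488 CPM in EC, with a median of 13.9 CPM, and from 0 to 103 CPM in TB, with a median of 3.65 CPM. The ranges overlapped, and 8 EC cells lay above every TB cell. The mean was 61.9 ± 111 CPM (SD, n = 38 cells) in EC and 19.1 ± 30.7 CPM (SD, n = 48 cells) in TB, 3.23-fold higher in EC, with 3.61-fold in EQ-Vary and 3.23-fold in EQ-75%. The highest cell in each experiment was EC 38, at 488, 502 and 435 CPM, the cell with the least LPL in EQ. Over all EC cells, however, LPL and FABP5 were nearly unrelated in rank (-0.09, -0.11 and -0.07). FABP5 and LIPG had a rank correlation of 0.31, 0.32 and 0.40 over EC cells. With the total count of EC cells, FABP5 had a rho of -0.27, -0.40 and -0.28, and LIPG -0.21, -0.39 and -0.35. The part of depth in the correlation of FABP5 with LIPG was not tested. The genes closest to FABP5 over EC cells were PGAP1 (0.64 in EQ, 0.62 in EQ-75%), ORC6 (0.63 and 0.59) and RUSC1 (0.62 and 0.55), with PGAP1 the closest in both. Of the 51-base windows of FABP5, 0 matched another protein-coding gene but 44.3% matched transcripts of other genes that do not code for protein, and only protein-coding genes were in the reference to which reads were mapped.

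PPARG is the nuclear receptor of fat cells and of trophoblast, and lies at 3:12287368-12434356 (plus strand). In TB of EQ it ran from 0 to 234 CPM with a median of 0.890 CPM, and in EC from 0 to 1.06 CPM with a median of 0. No EC cell had more than 2 counts in any experiment, and 23 of 48 TB cells lay above every EC cell in EQ. The mean was 25.4 ± 54.0 CPM (SD, n = 48 cells) in TB and 0.179 ± 0.286 CPM (SD, n = 38 cells) in EC, 142-fold higher in TB, with 113-fold in EQ-Vary and 150-fold in EQ-75%. Both means rest on counts, 2858 in TB and 14 in EC in EQ.

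The TB cells were divided in their PPARG level. In EQ, 4 cells had at least 100 CPM, 10 had 10 to 100 CPM, 19 had less than 10 CPM and 15 had 0, and the highest cell held 19.2% of the summed CPM. TB 41, TB 15, TB 8 and TB 50 led with 234, 179, 172 and 162 CPM in EQ. Of 45 TB cells that passed in all 3 experiments, 23 had a count each time, 9 had none at any time and 13 had a count in 1 or 2 of them, never above 6 counts. The spread was 1.43 times that of genes of similar mean. PPARG in TB had a rank correlation with APOE of 0.16, 0.22 and 0.09, with FABP5 of 0.25, 0.17 and 0.29, and with the summed trophoblast markers of -0.04, 0.09 and 0.13. Its closest genes over TB cells in EQ, TMED7-TICAM2, C1orf112 and CYHR1 (0.56, 0.55 and 0.50), had 0.39, 0.27 and 0.32 in EQ-75%.

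Repetition of the same cDNA kept the rank order of cells for the abundant members. Between EQ and EQ-75% the rank correlation over EC cells was 0.98 for LPL, 0.99 for FABP5, 0.92 for LIPG and 0.90 for APOE, and over TB cells it was 0.92 for APOE, 0.90 for FABP5, 0.85 for LIPG and 0.82 for PPARG. For LPL in EC, the SD of the within-cell difference in log2(CPM + 1) was 0.48, against 3.22 between cells. PPARG in EC, with at most 2 counts a cell, had a rank correlation of 0.19. The count-depth rate is the slope of a median regression of the log count on the log depth, over cells with a count. A slope of 1 means that counts grow in proportion to depth. For LPL in EC it was 1.21, 1.002 and 1.19, and for LIPG in EC 0.56, 0.63 and 0.38, in EQ, EQ-Vary and EQ-75%. For FABP5 in EC it was -0.99, -0.80 and -0.62, and for APOE in EC -0.17, -0.17 and 2.05. In EQ these used the 33 EC cells with a count of FABP5 and the 32 with a count of APOE. The part of level differences between cells in these slopes was not tested.

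A list of 130 other genes of lipid handling was read beside the 8, of which 100 were tested. In EQ, 37 were at least 2-fold higher in EC and 18 in TB, with 45 within 2-fold, and the median log2 EC over TB was 0.54 for the list and -0.07 for all genes tested. The counts were 36 and 18 when EQ-Vary was used, and 34 and 20 with EQ-75%. When the highest cell of each gene was left out of each type, the counts were 34 and 19. As a difference of mean log2(CPM + 1) they were 18 and 15. For neither of these alternatives is a share over all genes given, so the list cannot be set against all genes on them. By role, 8 of 17 genes of fatty acid uptake and binding were higher in EC and 5 in TB, 6 of 16 lipoprotein receptors were higher in EC and 5 in TB, and 4 of 10 lipases and partners were higher in EC and 1 in TB. Over all genes these shares were 19.7% towards EC and 27.2% towards TB. Of 10 nuclear receptors and coactivators, 5 were higher in EC and 3 in TB with EQ, and 2 and 3 with EQ-75%. Of 16 genes of fatty acid synthesis and oxidation, 11 were within 2-fold.

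The receptors and transporters divided between the cell types. LRP2, the endocytic receptor megalin, had 587 ± 479 CPM in TB and 2.45 ± 3.90 CPM in EC, and all 48 TB cells lay above every EC cell. SLC27A6, a fatty acid transporter, had 81.7 ± 108 CPM in TB and 0.548 ± 1.24 CPM in EC, and SLC27A4 of the same family had 5.42 ± 14.9 and 0.229 ± 1.12 CPM. SLC27A3, also of that family, went the other way, with 68.3 ± 107 CPM in EC and 1.68 ± 3.60 CPM in TB. LRP5, SORL1 and the oxysterol receptor NR1H2 were also higher in TB (log2 EC over TB of -6.09, -3.53 and -3.62). They had a count in 16, 40 and 28 of the 48 TB cells. The 3 highest TB cells held 71.8% of the summed CPM of LRP5 and 63.6% of that of SLC27A4. The scavenger receptor STAB1 (log2 EC over TB of 5.83) and CAV1, the coat protein of caveolae (4.39), were higher in EC. PPARGC1B, a coactivator (8.37), rested on a few EC cells, with 98.1% of its summed CPM in 3 of them. APOD (5.66) rested on EC 8, which held 98.5% of the summed CPM, and its value without the highest cell of each type was 0.60.

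**Figure D4:**
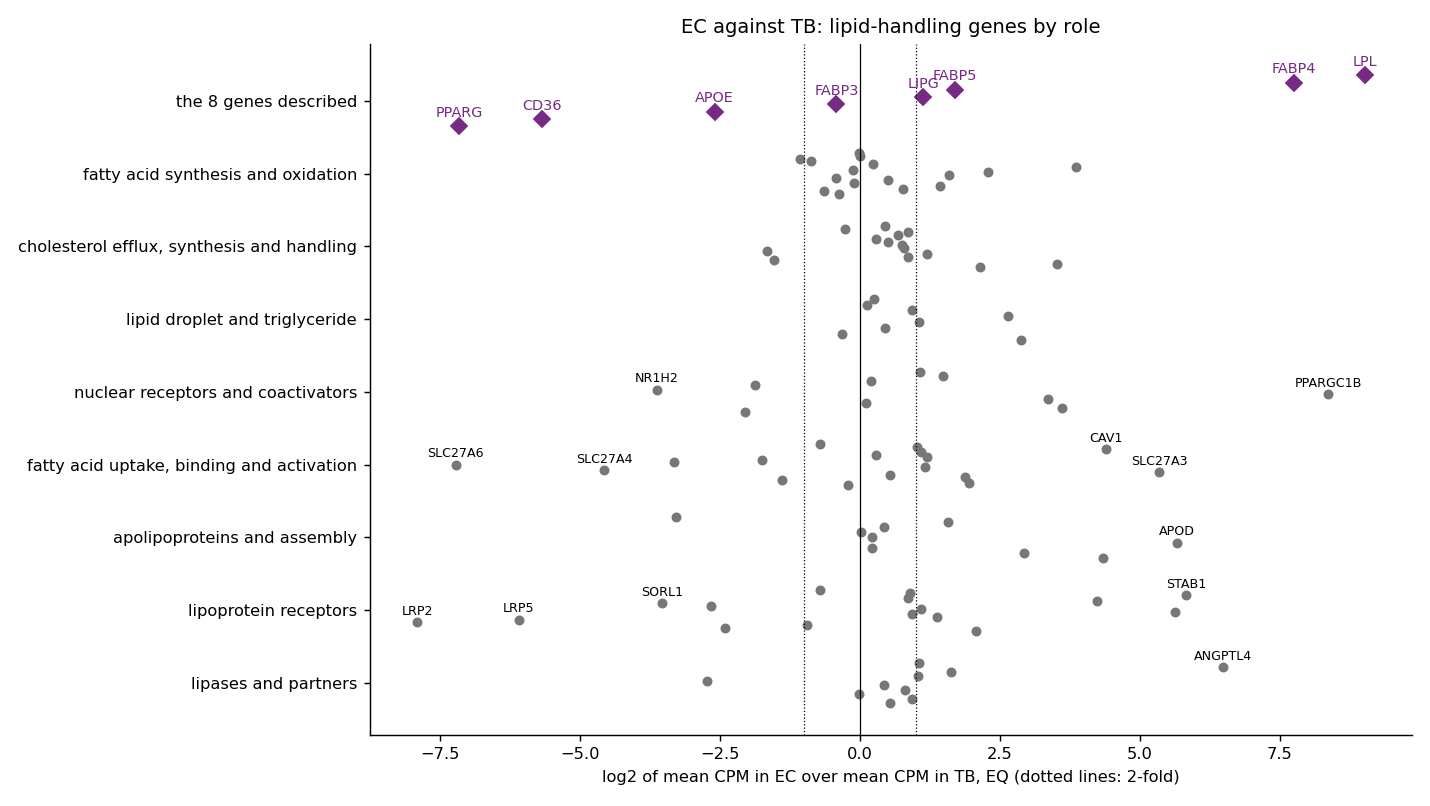
Log2 of the mean CPM in EC over that in TB in EQ for the 8 genes described (diamonds) and the 100 tested genes of the lipid-handling list by role (grey points, the named genes labelled); dotted lines mark 2-fold. The list passes 2-fold on both sides in every role but the lipid droplet genes. Of the 8 tested lipid droplet genes, 5 were within 2-fold and none was 2-fold higher in TB, where PLIN3 stood at -0.32. The points of FABP4 and APOD rest on EC 8.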

How the data were processed

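The authors trimmed reads to 51 bases, mapped them with Bowtie 1.2.3 (up to 2 mismatches) to the protein-coding genes of GRCh38, and deposited expected counts from RSEM 1.2.31 with no normalization, per the labels and the study's methods. These estimated counts were rounded here, and CPM was taken over each cell's rounded total. Cells were kept at a log10 total count of at least 5.4 and at most 31% of counts in the 50 highest genes, as in the study. Detection was a rounded count of at least 1. Genes tested had a mean of at least 1 CPM in either type, and spread was read against a running median of 201 genes of similar mean. Cells are not replicates, so no p-value was computed, and intervals and floors cover counting error only, since the reads carry no molecular identifiers. A single count carries an error as large as itself.

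The members and gene lists were chosen with earlier results of these data known. Named list genes were the 6 with the largest log2 ratio to each type among those past 2-fold with at least 5 CPM, the cell type markers, and the 3 genes closest in rank to each member detected in at least 25% of cells; other genes are said to be chosen after their values were seen, as were single cells such as EC 8. The study gives same-numbered cells as 1 cDNA, and every same-numbered pair deviated together (lowest correlation 0.855), so experiments were compared within cells. The 2-fold and spread calls, thinning and slopes were tested on simulated data. The simulated spread between cells was smaller than that of FABP4 in EC or CD36 in TB. In the 2-fold test it was also smaller than that of LPL, LIPG, FABP3, FABP5 and APOE in EC. The same held for FABP3, FABP5, APOE and PPARG in TB. The squared coefficient of variation in EQ was, for example, 1.32 for LPL in EC and 4.52 for PPARG in TB. The simulation therefore does not bear on calls that rest on a few cells, or on the 2-fold calls of these genes. The tools were pandas 2.3.3, numpy 2.4.6, statsmodels 0.14.6, scipy 1.17.1 and matplotlib 3.10.9 under Python 3.11.15, and scran 1.30.0 under R 4.3.3 for alternative size factors. Coordinates and transcripts were those of GENCODE v44 on GRCh38. Of the lipid-handling list, 6 genes were not analysed here.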

Additional observations from a re-analysis of the deposited data

How the results depend on the processing

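Of 341 alternative values, 298 kept their direction and moved by less than the spread used to judge them, and none turned a called direction. With all cells and no limits, the log2 EC over TB was 5.53 for LPL (9.02 with the limits) and -2.97 for PPARG (-7.15). As a difference of mean log2(CPM + 1) it was -2.02 for PPARG, -0.39 for CD36 (-5.67) and 0.17 for FABP4 (7.75), and with a pseudocount of 0.1 it was -3.28, -0.69 and 0.21 for these and -4.65 for APOE (-2.59). The construction of the log mean gives single high cells less weight. CD36 stood at -8.23 in EQ-75%. Without the highest cell of each gene, 1 of the 8 genes exceeded 2 times the spread of similar genes in EC, not 2. Of the lipid-handling list, 19 genes were past 4-fold towards EC, and 18 past 2-fold in mean log2(CPM + 1), where 37 were past 2-fold. No share over all genes is given for the 19 and the 18. With scran size factors the median log2 of all genes tested was -0.02, not -0.07. Leaving out EC 15, chosen after seeing the data, kept the direction of all 8 genes. Leaving out the highest cell of each type kept that of 7, and FABP4 then had no count left in either type. The count-depth rate of FABP5 in TB had no stable sign (-1.32 in EQ, 1.15 in EQ-75%). Dropping the pairing of cells between experiments, in a comparison with no replicate block, gave a log2 EQ-75% over EQ of 0.99 for FABP3 in TB, where the paired value was 0.11, and moved no other gene tested by more than its spread between cells. APOE in EC was at -0.71 between EQ-75% and EQ, and at -0.63 without EC 5. Depth limits what can be said of single cells with 1 or 2 counts, which is every detected cell for PPARG in EC, so that a cell with no count cannot be told from such a cell.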
